A study of Mus musculus with 6 samples.

Results

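Circadian clock genes were followed in mouse cultures that carry the label female germline stem cells, which are dividing germ cells of the ovary kept in vitro. The set was 10 genes chosen by symbol, Clock, Arntl, Per1, Per2, Cry1, Cry2, Nr1d1, Nr1d2, Dbp and Tef, and all 10 were found among the 54232 genes of the deposited table. Cultures received the compound C89, for which the labels give a code name alone, or, as the control group, the solvent DMSO, with 3 libraries each, and were collected after 8 h. No strain, animal age, dose or time of day is given in the sources used here, and a single time was sampled, so levels and not rhythms were measured. The title of the series names autophagy and PI3K-AKT signalling, and the comparison here asks what the treatment did to the clock genes.

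The circadian clock is a feedback loop of transcription. CLOCK and BMAL1, the product of Arntl, pair on E-box DNA elements and switch on the Per, Cry, Nr1d and Dbp genes. PER and CRY proteins then shut the pair off, while REV-ERB proteins, encoded by Nr1d1 and Nr1d2, repress Arntl. DBP, TEF and their relative HLF are output factors that bind D-box elements and pass the rhythm on to other genes. In culture the cells of a dish drift out of phase unless something sets them together, so a bulk library averages over cells.

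Values are normalized read counts, which are reads per gene divided by a size factor of the library. Fold changes of C89 over DMSO are given as log2, computed on log2(value + 1) by limma across all genes tested, with p-values adjusted by the Benjamini-Hochberg method over all of them and a threshold of 0.05. Libraries held 7772060 to 17938295 reads assigned to genes in the C89 group and 17826569 to 21763459 in the DMSO group. The labels do not say whether replicates were separate cultures, so p-values speak of the spread among these libraries alone, and it may be technical. Between C89 libraries 2 and 3 the counts differed little more than by sampling (chi-square over its degrees of freedom 1.61), whereas other same-group pairs reached 9.08 to 26.7. Markers of the labelled cell type were scarce. Of 9 germ cell markers 4 had no read in any library, and the list summed to 14.2 to 23.03 in C89 and 3.98 to 77.3 in DMSO libraries. The markers without a read were Dazl, Dppa3, Nanos3 and Tfap2c. Except in the third DMSO library, the germ cell sum was carried mainly by Ifitm3, so it is not a measure of the whole list. For 10 mast cell markers, summed levels were 84001 to 95209 in C89 and 49439 to 59271 in DMSO libraries, carried mainly by Kit, Gata2 and Cpa3. Of the 6 tested 4 rose, and Tpsab1 and Cma1 were not called. Ms4a2 had no read in any library, and Fcer1a, Mcpt4 and Tpsb2, at most 1.27 in a library, had too few reads to be tested. Among all genes tested, 12.5% were called higher and 13.6% lower. Of 8 macrophage markers, which summed to 3721 to 3988 in C89 and 1801 to 2713 in DMSO libraries, C1qb had no read. That sum was carried by Adgre1 and Cd68, and of the 5 tested only Adgre1 was called higher, with a list median log2 fold change of -0.17 and values down to -1.01. Csf1r, at most 2.55 in a library, and C1qc, at most 5.58, had too few reads to be tested. Of 7 epithelial and granulosa markers 6 had no read, and the list summed to 10.6 to 16.3 in C89 and 6.37 to 7.34 in DMSO libraries. Of 12 fibroblast markers, Lum and Postn had no read, 3 of the 10 tested fell, and summed levels were 65.5, 106 and 147 in the C89 libraries and 1319, 2504 and 144 in the DMSO libraries, so that the sum of the third DMSO library lay within the range of the treated ones. Single genes differed from that sum, since Fn1 was at 8.13 to 17.8 in the C89 libraries and 53.3 in the third DMSO library, and Pdgfra at 18.6 to 28.5 in the C89 libraries and 56.5 in the third DMSO library.

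Of the 10 clock genes, 2 fell and none rose in treated cultures. The output gene Dbp fell 3.84-fold and the repressor gene Per1 fell 1.39-fold, while Tef, the sister gene of Dbp, and the other core genes with more than a few reads were not called. The share of all 18954 genes tested that were called was 26.1%, and 13.6% were called lower, so 2 of 10 lies between these shares and does not set the genes apart from the whole table. The groups did not overlap in 2 of the 10, both with C89 lower, against 40.9% of all genes tested. In 21.0% of all genes tested the groups were apart with C89 lower, and in 19.9% with C89 higher. The count test of edgeR called the same pair (adjusted p = 3.45e-05 for Dbp and 0.00715 for Per1) and 24.5% of all genes. The median log2 fold change was -0.024 over the 8 core genes, with 1 called lower, and -0.03 over all genes tested, and of the 2 output genes 1 was called. Per1 missed the threshold without the third C89 library (limma adjusted p = 0.0501) or without the second DMSO library (0.077), which left 1 gene called. These counts and medians include Arntl and Cry1, which had 0 reads in 4 libraries and at most 17 in the others.

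**Figure D1:**
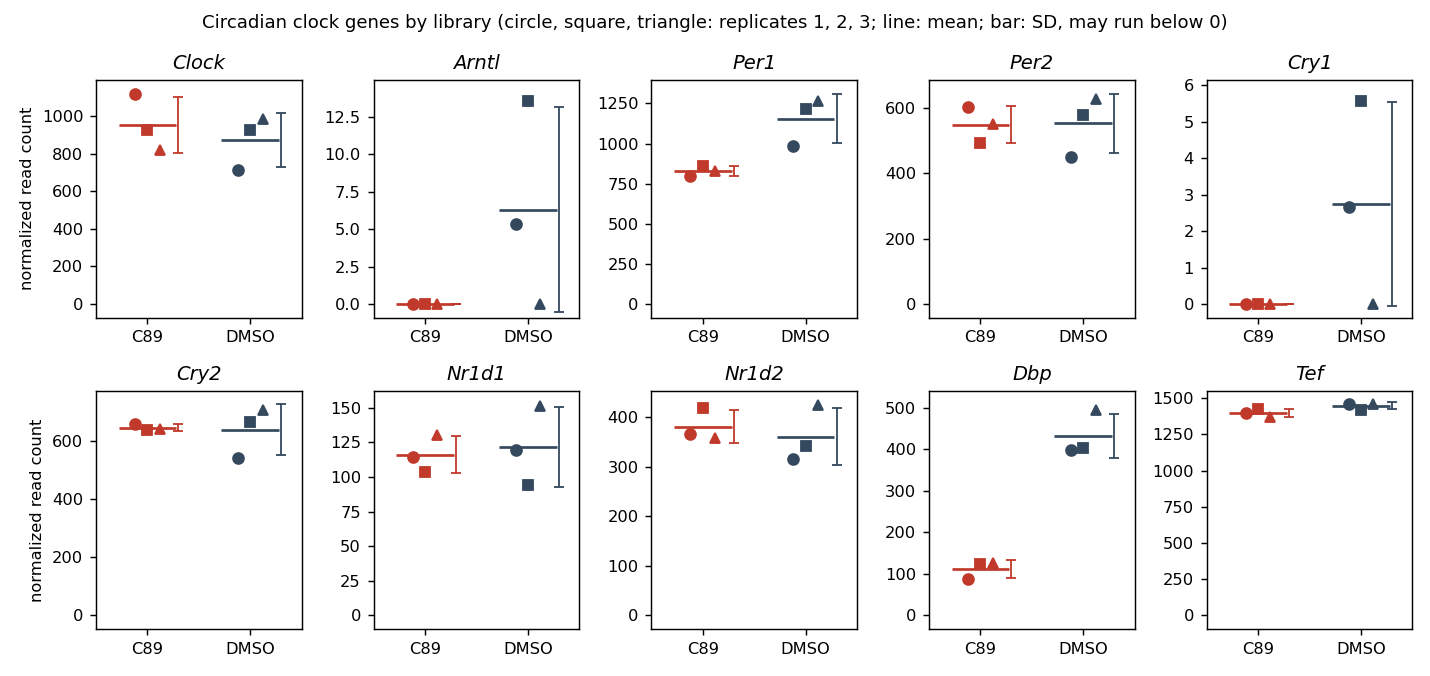
Normalized read counts (vertical axes, each with its own scale and with 0 shown) of the 10 clock genes in the 3 C89 and the 3 DMSO libraries, with a symbol for each replicate, the mean as a line and the SD as a bar. The C89 points of Dbp lie at 87.7 to 126 and its DMSO points at 399 to 494, Per1 is also lower in each C89 library, and Arntl and Cry1 are above 0 only in the first and the second DMSO libraries.

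Dbp (ENSMUSG00000059824) encodes an output factor of the PAR bZIP family that binds D-boxes and is a classic direct target of CLOCK and BMAL1. It had 87.7, 124 and 126 normalized counts in the C89 libraries and 399, 404 and 494 in the DMSO libraries. The groups were far apart, and the first C89 library was the lowest. The means were 113 ± 21.6 in C89 and 433 ± 53.5 in DMSO (SD, n = 3 each), and the log2 fold change was -1.94 (SE 0.16, 95% interval -2.30 to -1.59, limma adjusted p = 1.33e-05). Behind these values were 99, 61 and 99 reads in C89 and 599, 507 and 621 in DMSO libraries. Dbp ranked at place 40 of 18954 by p. In the authors' deposited table its log2 fold change is -1.79, with an adjusted p of 1.29e-20. Leaving out any 1 library kept the log2 fold change at -2.04 to -1.78 and the call (limma adjusted p from 3.43e-04 to 0.0141).

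The third DMSO library had the highest Dbp level and the lowest fibroblast sum of its group. Against that library alone, a comparison chosen after seeing the data, the log2 fold change was -2.14 with a limma adjusted p of 0.0525, so the call was lost, and the single control is assumed there to vary like the treated libraries. The summed mast cell markers were higher in each C89 library, and so was the macrophage sum, through Adgre1 and Cd68 and not through the rest of its list. Whether RNA of mast cells, macrophages or fibroblasts had a part in the result was not tested. In a bulk library fewer cells of a type that makes a transcript and less of it per cell cannot be told apart. The annotation used here places 539 exon bases of Dbp opposite exons of Sphk2, a sphingosine kinase gene on the other strand, and the sources used here do not say whether counting used strand, although 1 of the 2 library kits in the labels keeps it. Sphk2 had 707, 665 and 722 normalized counts in C89 and 879.6, 886 and 979 in DMSO libraries (log2 fold change -0.39, limma adjusted p = 0.0085). The ratio of Dbp to Sphk2 was 0.124, 0.187 and 0.175 in C89 and 0.454, 0.456 and 0.505 in DMSO libraries, so the level of Dbp was lower relative to its neighbour as well.

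Tef (ENSMUSG00000022389), which encodes the second PAR bZIP output factor of the set, had 1397, 1425 and 1369.6 normalized counts in C89 and 1462, 1419 and 1458 in DMSO libraries. The groups overlapped and each varied by little, with means of 1397 ± 27.5 in C89 and 1447 ± 23.9 in DMSO. Its log2 fold change was -0.05, with a 95% interval of -0.23 to 0.12 (limma adjusted p = 0.694), an interval that lies apart from that of Dbp. A ratio within a library does not depend on how libraries are scaled. The ratio of Dbp to Tef was 0.0628, 0.087 and 0.0921 in C89 and 0.273, 0.285 and 0.339 in DMSO libraries, a log2 difference of -1.90 between groups that did not overlap (exact permutation test, two-sided, p = 0.1, the smallest that 3 against 3 libraries allow; 0.117 after Benjamini-Hochberg adjustment over the 7 ratios computed).

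**Figure D2:**
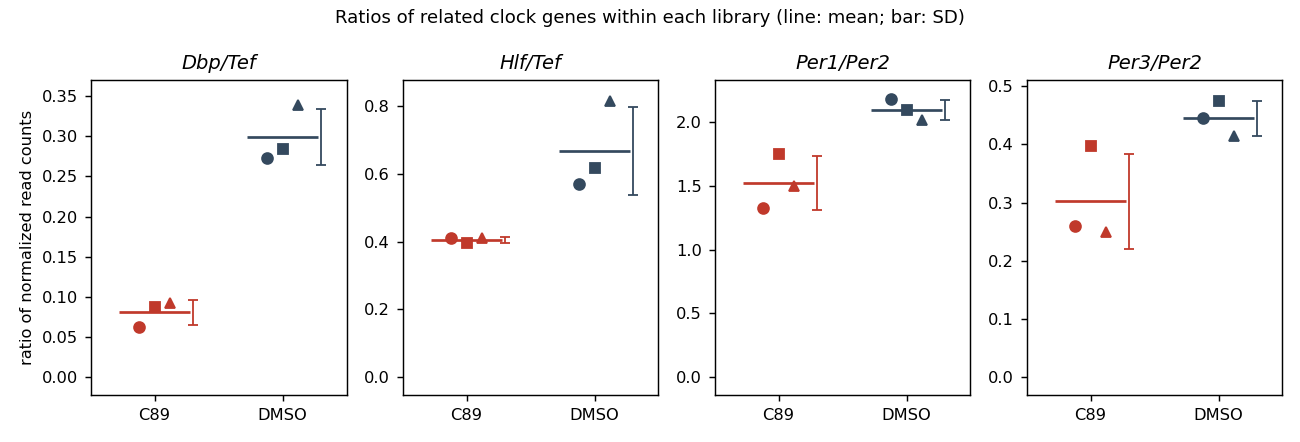
Ratios of normalized read counts of related clock genes within each library (vertical axes), for the 3 C89 and the 3 DMSO libraries, with the mean as a line and the SD as a bar. Dbp and Hlf relative to Tef, and Per1 and Per3 relative to Per2, are lower in each C89 library than in any DMSO library.

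Promoter windows are printed for some genes that were called and some that were not, as examples and not as a comparison. They are the 250 bases before an annotated start, from RefSeq on GRCm38.p6, written 5′ to 3′ on the gene's strand, and capitals mark matches on either strand to the E-box CACGTG, the related CACGTT, the D-box TTANGTAA, the REV-ERB element TAGGTCA or the cAMP element TGACGT. None of these matches overlaps another in the 6 windows shown. The first is Dbp at chr7:45704997-45705246 (+), then the first and the second start of Per1 at chr11:69098699-69098948 (+) and chr11:69099902-69100151 (+), the second start of Tef at chr15:81811164-81811413 (+), Per3 at chr4:151044666-151044915 (-) and Ciart at chr3:95882229-95882478 (-).
Dbp: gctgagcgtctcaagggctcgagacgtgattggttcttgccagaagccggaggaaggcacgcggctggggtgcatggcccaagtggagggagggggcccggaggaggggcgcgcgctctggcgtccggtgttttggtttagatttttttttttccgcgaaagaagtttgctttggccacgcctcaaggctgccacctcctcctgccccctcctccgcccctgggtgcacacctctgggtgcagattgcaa
Per1 first start: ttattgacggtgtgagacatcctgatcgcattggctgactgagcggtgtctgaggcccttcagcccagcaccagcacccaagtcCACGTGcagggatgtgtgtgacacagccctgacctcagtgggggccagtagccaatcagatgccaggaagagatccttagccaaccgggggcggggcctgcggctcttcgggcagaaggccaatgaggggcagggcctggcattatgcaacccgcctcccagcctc
Per1 second start: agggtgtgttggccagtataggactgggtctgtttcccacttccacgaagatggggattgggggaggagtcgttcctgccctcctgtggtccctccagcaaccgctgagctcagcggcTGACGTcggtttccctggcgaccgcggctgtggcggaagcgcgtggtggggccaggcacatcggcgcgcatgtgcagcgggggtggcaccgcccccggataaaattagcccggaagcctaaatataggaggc
Tef second start: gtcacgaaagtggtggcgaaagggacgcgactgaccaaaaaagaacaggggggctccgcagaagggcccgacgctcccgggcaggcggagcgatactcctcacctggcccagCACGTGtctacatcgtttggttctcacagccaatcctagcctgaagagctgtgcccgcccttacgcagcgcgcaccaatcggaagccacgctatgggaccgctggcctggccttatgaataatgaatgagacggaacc
Per3: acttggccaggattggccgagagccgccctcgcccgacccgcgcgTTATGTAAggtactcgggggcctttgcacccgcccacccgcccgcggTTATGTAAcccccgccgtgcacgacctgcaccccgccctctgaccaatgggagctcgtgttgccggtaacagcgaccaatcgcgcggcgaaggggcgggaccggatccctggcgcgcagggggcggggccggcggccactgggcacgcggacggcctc
Ciart: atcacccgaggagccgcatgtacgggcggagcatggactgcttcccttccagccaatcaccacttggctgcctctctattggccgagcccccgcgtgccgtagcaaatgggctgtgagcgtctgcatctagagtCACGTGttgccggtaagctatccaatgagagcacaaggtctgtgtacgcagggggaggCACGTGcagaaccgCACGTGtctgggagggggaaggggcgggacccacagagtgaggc

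The Dbp window holds none of the 5 elements, which says nothing about elements elsewhere in the gene. Per1 has an E-box that begins 166 bases before its first start and a cAMP element 132 bases before its second. Tef, which was not called, has an E-box before each of its 2 starts, at 127 and 138 bases. Per3, called lower, has 2 D-boxes, at 205 and 158 bases. Among windows not printed, and picked after the values had been seen, E-boxes stand before called and uncalled genes. Sirt1, called lower, has 2, at 115 and 43 bases, and Cipc, called lower, has 1 at 17 bases before its second start. Thrap3 and Fkbp5, which were not called, have 1 each, at 122 and 169 bases. Hlf, called lower, has 2 overlapping cAMP matches, at 9 and 7 bases. Ciart, which encodes a repressor of CLOCK and BMAL1 and was chosen here after its values had been seen, has 3 E-boxes and was at 581, 825 and 657 normalized counts in C89 and 553, 668 and 791 in DMSO libraries (log2 fold change 0.04, limma adjusted p = 0.888). Of all 32851 promoter windows of the same length, 6.02% hold the E-box, 3.85% the related element, 2.06% the D-box, 2.23% the REV-ERB element and 6.47% the cAMP element. Windows were found for 9 of the 10 genes, 14 in all. Of these, 4 hold an E-box, 3 the related element (those of Cry1, Cry2 and Nr1d1), 1 the cAMP element and none a D-box or a REV-ERB element. A match is a description of the letters and not of binding.

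Per1 (ENSMUSG00000020893) encodes a PERIOD repressor that is also switched on within hours by cAMP signalling and glucocorticoids. It had 798, 859.6 and 827 normalized counts in the C89 libraries and 982, 1214 and 1266 in the DMSO libraries. Each C89 value lay below each DMSO value, and the treated libraries were the more alike. The means were 828 ± 30.8 in C89 and 1154 ± 151 in DMSO (SD, n = 3 each), with a log2 fold change of -0.47 (SE 0.11, limma adjusted p = 0.0063). The authors' deposited table gives -0.46 with an adjusted p of 0.00102. The log2 fold change stayed at -0.58 to -0.40 when any 1 library was left out.

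Per2 (ENSMUSG00000055866), the second PERIOD gene, had 603, 492 and 552 normalized counts in C89 and 451, 580.1 and 627 in DMSO libraries. The C89 values lay inside the DMSO range, with a log2 fold change of -0.0012 and a 95% interval of -0.29 to 0.28 (limma adjusted p = 0.997). The ratio of Per1 to Per2 was 1.32, 1.75 and 1.499 in C89 and 2.18, 2.09 and 2.02 in DMSO libraries, again with no overlap (log2 difference -0.47; exact permutation test, two-sided, p = 0.1, the smallest possible). Cry2 (ENSMUSG00000068742), whose product joins PER proteins in repression, had 658, 636 and 638 normalized counts in C89 and 540.1, 665 and 707 in DMSO libraries. The log2 fold change of Cry2 was 0.024, with an interval of -0.22 to 0.27.

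Clock (ENSMUSG00000029238), which encodes the partner of BMAL1, had 1116, 925 and 822 normalized counts in C89 and 712, 925 and 983 in DMSO libraries. Its groups overlapped widely (log2 fold change 0.13, 95% interval -0.17 to 0.43, limma adjusted p = 0.531). Of the REV-ERB genes, which encode nuclear receptors that silence Arntl, Nr1d1 (ENSMUSG00000020889) had 114, 104 and 129.95 in C89 and 119, 94.0 and 151 in DMSO libraries. Nr1d2 (ENSMUSG00000021775) had 367, 419 and 358 in C89 and 315, 342 and 425 in DMSO libraries. Neither was called, with intervals of -0.47 to 0.37 for Nr1d1 and -0.20 to 0.37 for Nr1d2. Nr1d1 shares 263 exon bases with Thra, the thyroid hormone receptor gene on the other strand, which was at 329, 411 and 389 in C89 and 411, 423 and 421 in DMSO libraries (log2 fold change -0.16, limma adjusted p = 0.337), so reads of the shared stretch may be assigned to either. The ratio of Nr1d1 to Thra was 0.311 ± 0.0513 in C89 and 0.291 ± 0.0685 in DMSO libraries (SD; exact permutation test, two-sided, p = 0.7, n = 3 each). A fall as large as that of Per1, -0.47, lay outside the intervals of Clock, Per2, Cry2, Nr1d2 and Tef and at the edge of that of Nr1d1.

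Arntl (ENSMUSG00000055116) and Cry1 (ENSMUSG00000020038), which encode BMAL1 and a CRYPTOCHROME repressor, were almost without reads. Arntl had 0 reads in each C89 library and 8, 17 and 0 reads in the DMSO libraries. Cry1 had 0 reads in each C89 library and 4, 7 and 0 in the DMSO libraries. Both genes passed the filter on low values through the first and the second DMSO libraries alone, so they had to differ and their difference is a description. The authors' deposited table gives no adjusted p for either. The DMSO mean, carried by the first and the second DMSO libraries, was 5.05-fold a floor of 3 reads over the C89 group for Arntl. For Cry1 it was 2.20-fold that floor. These folds leave out the spread among the DMSO libraries, of which the third was at 0 like the C89 libraries. The 95% interval of the log2 fold change was -4.18 to -0.17 for Arntl and -3.36 to 0.30 for Cry1. Neither was called (limma adjusted p = 0.105 for Arntl and 0.21 for Cry1), and leaving out the third DMSO library, the control at 0 for both genes, brought both under the threshold by construction, at 0.0117 and 0.0396. The libraries with reads were the 2 in which the summed fibroblast markers reached 1319 and 2504, against at most 147 in the other 4, and the part of fibroblast RNA in these reads was not tested. Among the further clock factors, Bhlhe41, Rora, Rorb and Npas2 also had few reads, and they are named after their values had been seen. Bhlhe41, Rora and Rorb had 0 reads in the C89 libraries, with 7, 8 and 0 reads for Bhlhe41, 1, 10 and 1 for Rora and 0, 0 and 1 for Rorb in the DMSO libraries. Npas2, which encodes a relative of CLOCK, did not share that pattern, with 1, 0 and 3 reads in the C89 libraries and 0, 0 and 2 in the DMSO libraries. At this depth, 3 reads correspond to 2.66 to 6.10 normalized counts in a C89 library and 2.00 to 2.39 in a DMSO library, so lower levels could have gone unseen. These floors cover counting error only.

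**Figure D3:**
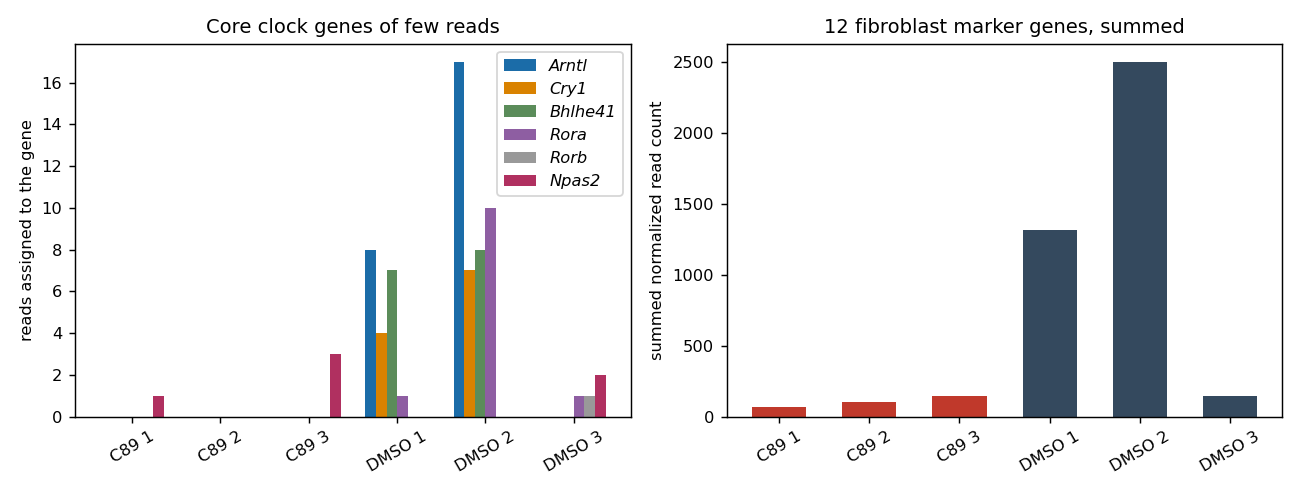
Reads assigned to Arntl, Cry1, Bhlhe41, Rora, Rorb and Npas2 in each library (left, vertical axis in reads) and the summed normalized read counts of 12 fibroblast markers in the same libraries (right, C89 in red and DMSO in dark blue). The reads of Arntl, Cry1 and Bhlhe41 lie in the first and the second DMSO libraries, where the fibroblast sum is 1319 and 2504, while Npas2 has 1 and 3 reads in C89 libraries and 2 in the third DMSO library.

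Arntl2, which encodes BMAL2, a relative of BMAL1 that can pair with CLOCK, had reads in every library, unlike Arntl. Per kilobase of exon, the level of Arntl2 was 164 in C89 and 202 in DMSO cultures, that of Clock 69.5 in C89 and 63.6 in DMSO, and that of Arntl 0 in C89 and 0.837 in DMSO cultures. Arntl2 had 893, 900.3 and 1003 normalized counts in C89 and 1043, 1133 and 1273 in DMSO libraries (log2 fold change -0.30, SE 0.10, limma adjusted p = 0.0427). That call was lost without the first C89 (limma adjusted p = 0.111), the second C89 (0.152), the third C89 (0.0731), the second DMSO (0.136) or the third DMSO library (0.133).

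Compared per kilobase of exon, the order of the 10 genes differed between the groups at Dbp and at the top, where Per1 and Tef changed places. In C89 libraries Tef was highest at 178 normalized counts per kb, followed by Per1 at 147, Cry2 at 102, Per2 at 93.7, Nr1d2 at 70.5, Clock at 69.5, Nr1d1 at 37.7 and Dbp at 37.6. In DMSO libraries Per1 at 205 and Tef at 184 were highest and Dbp came next at 145, followed by Cry2 at 101, Per2 at 94.4, Nr1d2 at 66.7, Clock at 63.6 and Nr1d1 at 39.5. In C89 libraries neighbours with overlapping ranges were Cry2 and Per2, Nr1d2 and Clock, and Nr1d1 and Dbp. In DMSO libraries they were Per1 and Tef, and the run of Cry2, Per2, Nr1d2 and Clock. Exon lengths are those of the reference annotation, which may not be the one the authors used.

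**Figure D4:**
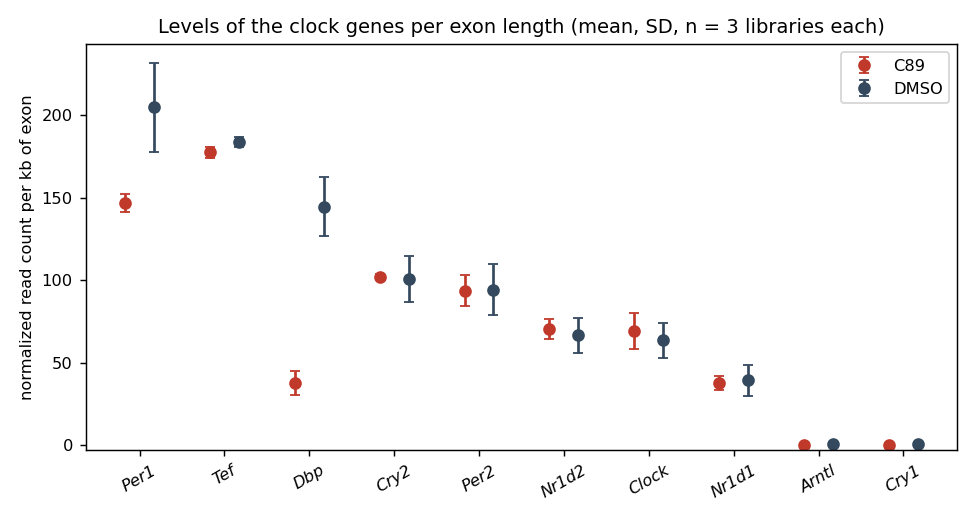
Mean normalized read count per kilobase of exon (vertical axis) of the 10 clock genes in C89 and in DMSO libraries, with the SD over 3 libraries as a bar and genes ordered by their DMSO level. Dbp lies at 37.6 in C89 and 145 in DMSO cultures, while most of the other genes have nearly the same level in each.

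Around these 10 genes, genes of the wider clock pathway were called in both directions. Of 62 further genes in 5 lists, 59 passed the filter on low values, and of these 7 rose and 14 fell. Among all genes tested, 12.5% were called higher and 13.6% lower. With the filter set at a mean of at least 10, 21 of 54 further clock genes and 4927 of 12934 genes in all were called. At that filter the number called does not set the further clock genes apart from the whole table. With libraries scaled by total reads, 4 of the 59 rose and 20 fell. The median log2 fold change of well-covered genes (mean 50 or more) was -0.17 under that scaling and -0.02 without it. Of all calls, 27.0% were higher under that scaling and 47.8% without it. The 7 genes Bhlhe40, Hlf, Csnk1e, Sirt1, Ncor1, Nono and Crtc3 stayed called without any 1 library, and 4 of them, Bhlhe40, Hlf, Sirt1 and Nono, under every alternative tried. Against the third DMSO library alone the limma adjusted p was 0.0558 for Csnk1e, 0.0683 for Ncor1 and 0.0671 for Crtc3. Skp1 was found under its older name Skp1a.

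Of 7 further output genes, 3 fell and none rose, beside 13.6% of all genes tested called lower. The median log2 fold change was -0.35, which counts Lonrf3, named after its values had been seen. Lonrf3 had 0 reads in each C89 library and 4, 5 and 1 in the DMSO libraries. It passed the filter through the DMSO libraries alone, so it had to be lower. Hlf, which encodes the third PAR bZIP factor, had 572, 563 and 562 normalized counts in C89 and 834, 878 and 1189 in DMSO libraries. The C89 libraries were nearly equal and all below the DMSO range (log2 fold change -0.75, SE 0.13, limma adjusted p = 0.00107). The ratio of Hlf to Tef was 0.405 ± 0.00854 in C89 and 0.668 ± 0.13 in DMSO libraries (SD, n = 3 each). The ratio of Dbp to Hlf was 0.199 ± 0.04 in C89 and 0.452 ± 0.0324 in DMSO libraries, so Dbp was also lower relative to Hlf (log2 difference -1.20; exact permutation test, two-sided, p = 0.1, the smallest possible). Usp2, a ubiquitin protease gene under clock control in several tissues, had 92.1, 104 and 99.4 in C89 and 144, 175 and 193 in DMSO libraries (log2 fold change -0.78, limma adjusted p = 0.00399). Wee1, a kinase gene that restrains entry into mitosis, had a log2 fold change of -0.35 (limma adjusted p = 0.0207). Without the second DMSO library the adjusted p of Usp2 was 0.0505, and that of Wee1 was 0.054 to 0.0771 without the first C89, the second C89, the third C89, the first DMSO or the second DMSO library. Nfil3, whose product opposes the PAR bZIP factors at D-boxes and which was chosen after its values were seen, was at 4004 ± 148 in C89 and 3463 ± 385 in DMSO libraries (log2 fold change 0.21, limma adjusted p = 0.117).

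Of 9 further clock factors, 7 were tested, of which 1 rose and 2 fell. Among all genes tested, 12.5% were called higher and 13.6% lower. The median log2 fold change of the 7 was -0.30. That median counts Rora and Bhlhe41, which had 0 reads in each C89 library. Both passed the filter through DMSO libraries alone, so they had to be lower. It also counts Npas2, with at most 3 reads in a library. Bhlhe40, which encodes DEC1, a repressor at E-boxes, rose, with 7257, 6808 and 6757 normalized counts in C89 and 4486, 5350.5 and 4405 in DMSO libraries. The groups were well apart (log2 fold change 0.55, SE 0.09, limma adjusted p = 0.00119). Per3, the third PERIOD gene, had 157, 195 and 138 in C89 and 201, 275 and 260.3 in DMSO libraries (log2 fold change -0.59, SE 0.17, limma adjusted p = 0.0216). Its call was lost without the first C89 (limma adjusted p = 0.0683), the third C89 (0.126), the second DMSO (0.161) or the third DMSO library (0.0973). The ratio of Per3 to Per2 was 0.302 ± 0.0822 in C89 and 0.445 ± 0.0295 in DMSO libraries (SD, n = 3 each), without overlap.

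**Figure D5:**
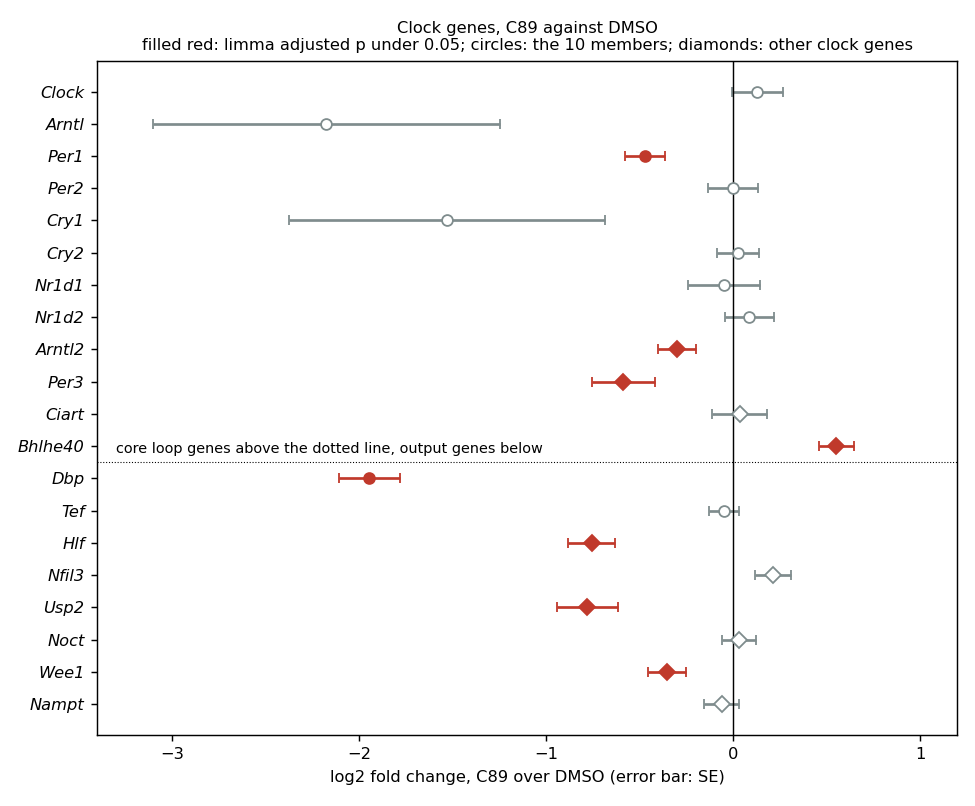
Log2 fold changes of the 10 clock genes (circles) and of further clock genes (diamonds), C89 over DMSO (horizontal axis, log2 scale), with the SE as a bar; filled red symbols have a limma adjusted p under 0.05. Dbp lies farthest to the left of the called genes at -1.94, Hlf and Usp2 at -0.75 and -0.78, and Bhlhe40 to the right at 0.55, while Tef, Per2, Cry2 and Ciart lie near 0.

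Of 18 genes for kinases, phosphatases and ubiquitin ligases that act on clock proteins, 17 were tested, of which 4 rose and 2 fell (median -0.0087), beside the same 12.5% and 13.6%. Csnk1e, which encodes casein kinase 1 epsilon, a kinase that marks PER proteins for destruction, rose to 1602 ± 132 in C89, against 974 ± 92.1 in DMSO cultures (SD over 3 libraries, log2 fold change 0.72, limma adjusted p = 3.83e-04). Its sister gene Csnk1d, chosen after its values were seen, was at 2303 ± 53.6 in C89 and 2428 ± 12.1 in DMSO cultures (limma adjusted p = 0.515). Dyrk1a, a kinase gene, fell with a log2 fold change of -0.64 (limma adjusted p = 0.00261, 0.0617 without the second DMSO library). The calls of Csnk2b, a casein kinase 2 subunit gene, Fbxw11 and Ppp5c, at log2 fold changes of 0.30, 0.25 and 0.24, had a limma adjusted p of 0.019 to 0.0474. Csnk2b shares 62 exon bases with Gpank1 on the other strand, which was chosen after its values were seen and was at 169 ± 45.4 in C89 and 455 ± 74.5 in DMSO cultures. Csnk2b lost its call without the second C89 (limma adjusted p = 0.1), the third C89 (0.0629) or the second DMSO library (0.0676). Fbxw11 lost it without any 1 library (limma adjusted p = 0.0637 to 0.129), and Ppp5c without any 1 library but the first DMSO library (0.0518 to 0.159).

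Of 15 clock cofactors, 2 rose and 4 fell (median -0.11), beside the same 12.5% and 13.6%. Sirt1, which encodes a deacetylase that acts on clock proteins, fell to 504 ± 20.8 in C89, against 1134 ± 212 in DMSO cultures (SD over 3 libraries; log2 fold change -1.15, limma adjusted p = 6.96e-05). Ncor1, the corepressor gene that REV-ERB proteins recruit, rose to 22565 ± 2089 in C89, against 14291 ± 1632 in DMSO cultures (log2 fold change 0.66, limma adjusted p = 9.43e-04), and Nono, whose product binds PER complexes, rose with 0.42 (limma adjusted p = 0.0033). Cipc, which encodes an inhibitor that binds CLOCK, fell with -0.58 (limma adjusted p = 0.00572), a call lost without the third C89 (0.0592) or the second DMSO library (0.0723). Timeless and the acetyltransferase gene Ep300 fell with -0.51 and -0.67 (limma adjusted p = 0.0126 and 0.016), with overlapping groups for Ep300. The adjusted p of Timeless was 0.0596 to 0.0883 without the first C89, the second C89, the second DMSO or the third DMSO library, and that of Ep300 was 0.115 to 0.187 without the second C89, the third C89, the second DMSO or the third DMSO library.

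Of 13 genes of the cAMP and glucocorticoid routes, none rose and 3 fell (median -0.16), beside 13.6% called lower among all genes tested. The list mixes factors of routes that reach Per1 with genes that such a route induces, so the count is not one of inputs to Per1. Crtc3, a CREB coactivator gene, had 733, 642 and 652 normalized counts in C89 and 979.6, 976 and 1043 in DMSO libraries (log2 fold change -0.57, limma adjusted p = 0.00107). Tsc22d3, a glucocorticoid-induced gene, had 1384, 1619.7 and 1571 in C89 and 1934, 2477 and 2241 in DMSO libraries (log2 fold change -0.54, limma adjusted p = 0.00282, 0.0505 without the second DMSO library). Fkbp5, another glucocorticoid-induced gene and chosen after its values were seen, was at 2536 ± 83.3 in C89 and 2285 ± 149.5 in DMSO libraries (limma adjusted p = 0.215). Zbtb16, a zinc finger factor gene, fell with -1.22 from few reads, at 16.8 ± 5.95 in C89 and 39.3 ± 8.46 in DMSO libraries (limma adjusted p = 0.0195). It missed the threshold without the second C89 (limma adjusted p = 0.0769), the second DMSO (0.142) or the third DMSO library (0.0679).

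The 3 genes whose levels followed Dbp most closely over the 6 libraries were Dedd2, Ing2 and Rad51d, with Pearson correlations of log2 values of 0.999, 0.998 and 0.998. Their log2 fold changes were -0.77, -0.77 and -0.91. Of 9698 named genes with a mean of at least 50, 746 had a correlation with Dbp above 0.95, and with 2 groups of 3 libraries such a value describes mainly the difference between the groups.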

How the data were processed

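RNA sequencing covered 6 libraries, 3 each of C89 and DMSO cultures at 8 h. Per the labels, RNA came from Trizol extraction and fragments were read from both ends. The submitters' processing notes name HISAT2 and DESeq2. Genome build, annotation and counting tool: not given in the sources used here. The authors deposited 1 signal per gene and library, a read count over a size factor. Their table also has a log2 fold change and an adjusted p-value, under names that DESeq2 uses, per the file headers. Dividing by the value of 1 read made 119020 of 119020 values above 0 whole to within 0.01 read (100%). A gene with text in a cell was dropped, leaving 54231, of which 54078 identifiers had a reference symbol. Another 6 columns, which have no name, were not used.

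The test was limma 3.58.1 (R 4.3.3, trended variance) on log2(value + 1), with group alone, over 18954 genes whose mean was 1 or more. It was tried on simulated libraries of equal spread, which the libraries here did not have, so that trial does not speak for these results. This scale makes fold changes of low genes too small. Alternatives were edgeR 4.0.16 (4652 called genes) and DESeq2 1.42.0 (4538 called genes) on recovered reads, other scalings, filters and pseudocounts, a block for replicate number, averaged C89 libraries, each library omitted, and 1 DMSO library as control. Floors are 3 reads over a group or, where said, in a library. Ratios had an exact permutation test. Promoter sequences are from RefSeq, and exon lengths and overlaps from GENCODE M21. The genes and lists were chosen with earlier results of these data known. By rule, the text names the 10 genes, the called genes of each further list (some genes are not reported here), Thra, genes overlapping Dbp or Per1 in the annotation (Sphk2), and the 3 genes of mean 50 or more whose log2 values correlate best with Dbp. Genes chosen after their values were seen are said to be so. Figures were drawn with matplotlib 3.10.9.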

Additional observations from a re-analysis of the deposited data

How the results depend on the processing

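Dbp kept its direction in the 17 alternatives and its call in all but the comparison with the third DMSO library alone (log2 fold change -2.14, limma adjusted p = 0.0525). Counts of called genes without 1 library ran from 2303 to 4711 over all genes, from 1 to 4 over the 10 clock genes and from 7 to 22 over the 62 further clock genes. With the second and the third C89 libraries averaged, 3297 genes were called. Against the third DMSO library alone, which was chosen as an alternative after seeing the data and left Arntl and Cry1 without a value, counts were 1510, 1 and 9. Genes that were not called changed sign in some settings. With scaling by total reads the log2 fold change of Clock was -0.019, of Cry2 -0.12 and of Nr1d2 -0.061. Against the third DMSO library alone they were -0.055, -0.13 and -0.16, and with C89 libraries averaged Per2 was at 0.035. Without 1 library, values ran from -0.011 to 0.23 for Clock, -0.14 to 0.10 for Per2, -0.090 to 0.10 for Cry2, -0.22 to 0.12 for Nr1d1 and -0.0038 to 0.21 for Nr1d2. The cause was not tested. With scaling by total reads Csnk2b, Fbxw11 and Ppp5c missed the threshold (limma adjusted p = 0.199, 0.397 and 0.431), and edgeR did not call Fbxw11 and Ppp5c (adjusted p = 0.0569 and 0.0758). Libraries with the same number did not deviate together (correlations of -0.19, -0.18 and 0.02). The labels state no pairing, and such correlations cannot exclude one. With a replicate block, 4092 genes, 2 clock genes and 16 further clock genes were called. Depth limits Arntl, Cry1 and the further factors of few reads, with at most 17 reads in a library.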
